A study of Mus musculus with 2 samples.

Results

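Neurexins, neuroligins and the Dlg scaffolds hold the 2 sides of a synapse together. Neurexins sit in the presynaptic membrane and bind neuroligins in the postsynaptic membrane, and the intracellular tails of neuroligins bind PDZ domains of the Dlg proteins. Those proteins belong to the membrane-associated guanylate kinases (MAGUKs), which anchor glutamate receptors at the postsynaptic density of hippocampal excitatory synapses. The genes examined were Dlg1 (SAP97), Dlg2 (PSD-93), Dlg3 (SAP102), Dlg4 (PSD-95), Nrxn2, Nrxn3, Nlgn1, Nlgn2 and Nlgn3, that is, 9 of the 21887 protein-coding genes placed on chromosomes 1 to 19, X and Y in the RefSeq annotation of GRCm38. Every peak overlapping one of these genes or lying within 10 kb of it was taken, which gave 14 of the 5326 peaks of the deposited list.

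The peaks come from a Cleavage Under Targets and Tagmentation (Cut&Tag) experiment, in which an antibody on chromatin directs the transposase Tn5 to cut and tag the DNA beside it. Each of 2 antibodies, anti-Smad4 and an IgG control, was applied to nuclei of mouse hippocampus and gave 1 library. Smad4 is the shared partner of the receptor-regulated Smads in TGF-β and BMP signaling, and the experiment asked which genes it targets. The study used 6-month-old male APP/PS1 mice, which carry the APPswe and PS1dE9 transgenes, and their wild-type littermates. It also examined the hippocampus of mice of other ages. Which of these mice, and how many, supplied the nuclei is not given in the sources used here. The list analysed belongs, by its record, to the IgG control library, while the name of the list itself gives only the tissue and a number, so a peak below cannot be read as binding of Smad4 or as background. A list of positions carries no expression, so the tissue label could not be checked against marker genes. With 1 list there is no replicate, no value has an error between animals, and no difference below was tested. The total number of reads was not used here, and depth is given as the pileup, which counts the fragments that overlap at a peak's summit.

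Peaks lay at 6 of the 9 genes. Dlg2 had 7, Nrxn3 had 3, and Dlg3, Dlg4, Nlgn1 and Nlgn2 had 1 each, whereas Dlg1, Nrxn2 and Nlgn3 had none. Of all protein-coding genes, 16.3% had a peak by the same rule. That share rose with gene length, and it was 12.7% for the 19458 genes under 100 kb, 41.6% for the 2202 genes of 100 to 500 kb and 72.2% for the 227 genes of at least 500 kb. The longest members, Dlg2 (1973 kb), Nrxn3 (1612 kb) and Nlgn1 (911.1 kb), all had a peak. Both members of 100 to 500 kb, Dlg1 (209.9 kb) and Nrxn2 (114.5 kb), had none. Under 100 kb, Dlg3 (51.0 kb), Dlg4 (28.33 kb) and Nlgn2 (14.66 kb) had a peak and Nlgn3 (22.17 kb) did not.

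**Figure D1:**
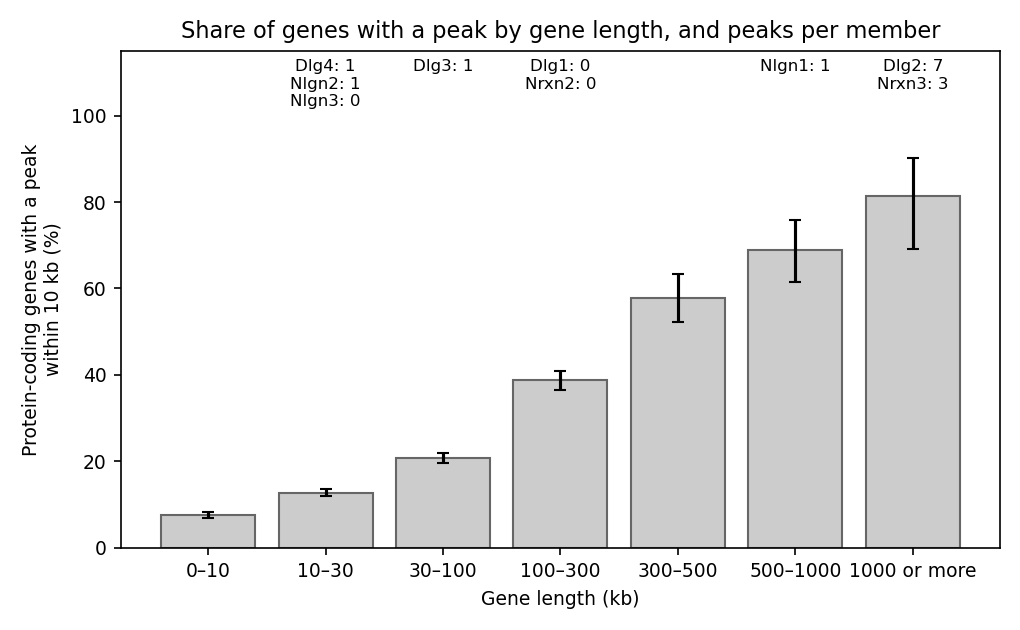
Share of protein-coding genes with a peak within 10 kb (vertical axis, %) by gene length (horizontal axis, kb), with 95% exact binomial intervals as error bars; the names above the bars give the number of peaks of each member of that length. The share climbs from 7.58% under 10 kb to 81.4% at 1000 kb or more, and the members with more than 1 peak are those of the longest class.

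Per length, the 9 genes carried peaks at about the rate of genes in general. The 14 peaks in 5.12 Mb of gene and flanks came to 2.74 peaks per Mb (95% exact Poisson interval 1.50 to 4.59), and all protein-coding genes with the same flanks held 3503 peaks at 2.72 per Mb (2.63 to 2.81). The 3 long genes had 11 peaks at 2.41 per Mb (1.21 to 4.32). The 6 shorter genes had 3 peaks at 5.35 per Mb (1.10 to 15.6), an interval that includes both other rates. These intervals cover counting error alone.

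All 14 peaks touched the gene itself. Of these, 13 (92.9%, 95% exact binomial interval 66.1% to 99.8%) lay wholly inside the gene and 1 crossed an end, and none was found in the 10 kb flanks outside. Those flanks were a small part of the 5.12 Mb searched, and the same share is not given here for genes in general. The next peaks beyond the window were 36.4 kb from Dlg4, in Elp5, and 45.0 kb from Nlgn2, in Zbtb4. For the other 7 genes the next peak was at least 248 kb away.

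Fold enrichment, the height of a peak over the background that MACS2 expects there, ranged from 2.83 to 10.29 among the 14 peaks, with a median of 4.16, and had a median of 2.88 in the whole list. The −log10 q had a median of 2.73 at these genes and of 1.57 in the whole list. A q-value of at most 0.01 was reached by 8 of the 14 peaks (57.1%, interval 28.9% to 82.3%) and by 38.6% of all peaks, a share that falls within that interval. At that limit 4 of the 9 genes kept a peak, namely Dlg2, Dlg3, Nrxn3 and Nlgn1, against 7.90% of all protein-coding genes. Dlg2, Nrxn3 and Nlgn1 are the 3 members of at least 500 kb, whereas the median protein-coding gene is 17.2 kb long. The 7.90% was not split by gene length, so the 2 shares are not like for like. Pileups were low throughout, with 2 fragments in 4 of the 14 peaks, 3 in 2, 4 in 5, 5 in 2 and 12 in 1. In the whole list 53.4% of peaks had a pileup of 2. The expected background was at least 0.1 fragments at 9 of the 14 peaks and at 33.9% of all peaks. The 4 peaks with a pileup of 2 had a background of 0.0405 or 0.0607, and the peak with 12 had 0.263. These 2 shares are therefore not independent of the pileups.

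**Figure D2:**
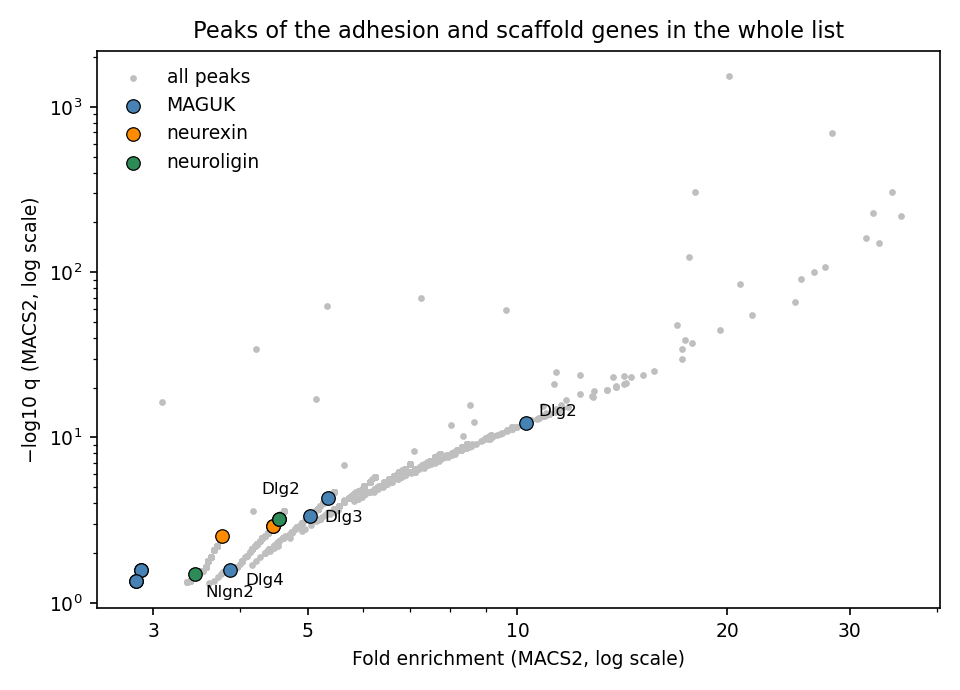
Fold enrichment (horizontal axis, log scale) against −log10 q (vertical axis, log scale) for the 5326 peaks (grey) and the 14 peaks at the MAGUK, neurexin and neuroligin genes (coloured; peaks with the same values lie on top of each other). One Dlg2 peak stands at 10.29 and 12.31, and the other 13 lie at a fold enrichment of 5.35 or less.

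Dlg3 encodes SAP102, a scaffold that binds NMDA receptors and is prominent at developing synapses. Its single peak lay at chrX:100773762-100774055, 294 bp long. Its fold enrichment was 5.03, its −log10 q 3.36 (q-value 0.000438) and its pileup 5. The background expected there was 0.192 fragments. By q-value it ranked 1033 to 1036 of 5326, in a tie of 4 peaks with identical values. The gene is transcribed toward higher coordinates, and the peak lay 6351 bp downstream of its outermost 5′ end. RefSeq lists further Dlg3 starts within the gene, and the peak fell just upstream of one of them, at position 100774495. Relative to that start it covered 733 to 440 bp upstream, with the summit 719 bp upstream. The summit was 14 bp from the upstream edge of the peak, and only 2.44% of all peaks had a summit within 15 bp of an edge. A second listed start, at 100777271, lay farther downstream.

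The RefSeq sequence around the nearer start is shown because it is the promoter window next to the Dlg3 peak, which stops 189 bp before it. It runs from 250 bases before to 50 bases after the start, chrX:100774245-100774544 (GRCm38.p6, plus strand). Capitals mark the 4-base Smad motif GTCT or its reverse complement AGAC, here as in the other promoters printed.

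Dlg3 promoter: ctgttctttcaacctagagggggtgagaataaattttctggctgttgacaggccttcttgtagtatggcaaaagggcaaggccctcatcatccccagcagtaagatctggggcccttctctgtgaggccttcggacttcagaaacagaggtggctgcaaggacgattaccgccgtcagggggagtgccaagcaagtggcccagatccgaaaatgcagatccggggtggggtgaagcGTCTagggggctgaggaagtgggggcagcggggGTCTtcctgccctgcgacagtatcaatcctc

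This window held 2 such motifs. Neither the 5-base Smad box CAGAC (or GTCTG), nor the palindrome GTCTAGAC, nor the GC-rich element GGCGCC was found in it on either strand. Motifs this short are common: 88.0% of the 32851 RefSeq promoter windows of this length held GTCT or AGAC, 49.6% held CAGAC or GTCTG (which contain the shorter motif), 11.9% held GGCGCC and 0.213% held GTCTAGAC. Among the 18 windows of the 7 members in that table, the counts were 15, 5, 2 and 0, respectively. A match is a string of letters and was not tested for binding. The bases under the peak itself were not analysed here.

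Dlg4 encodes PSD-95, the most abundant scaffold of the postsynaptic density. Its peak, at chr11:70020104-70020527, had a fold enrichment of 3.87 and a −log10 q of 1.57 (q-value 0.0272), so it did not reach a q-value of 0.01. Its pileup of 4 was 1 fragment below that of the Dlg3 peak, and its expected background, 0.294 fragments, was above the 0.192 at Dlg3. A background of at least 0.2 was found in 9.89% of all peaks. The same −log10 q belonged to peaks with a pileup of 2 and a background of 0.0405, of which there were 1662 in the list. The Dlg4 peak lay inside the gene, 2901 bp downstream of the outermost 5′ end, and it sat between listed starts. Its summit was 1831 bp downstream of the start at 70018605, and the next listed start, at 70023982, lay beyond it. Dvl2, Acadvl and Mir324 also lie within 10 kb of this peak, so the same rule counts it for them too. The window of the upstream start is printed to set it beside that of Dlg3 (chr11:70018355-70018654, plus strand).

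Dlg4 promoter: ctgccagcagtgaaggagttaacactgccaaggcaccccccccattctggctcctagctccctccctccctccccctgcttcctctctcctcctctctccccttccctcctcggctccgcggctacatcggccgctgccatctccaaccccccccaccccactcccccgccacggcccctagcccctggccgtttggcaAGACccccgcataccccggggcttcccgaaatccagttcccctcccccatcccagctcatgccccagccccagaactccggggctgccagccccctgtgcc

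It held 1 GTCT or AGAC and no other element searched, and its GC content was 69.0%, against 56.7% for the Dlg3 window and a median of 52.7% over all windows.

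Dlg2 encodes PSD-93, a close relative of PSD-95 that also binds NMDA receptors and potassium channels. With 7 peaks it had as many as any protein-coding gene. It is also among the longest, with 6 genes longer, and 3 of the 227 genes of at least 500 kb, Dlg2 included, had 7 peaks. Its rate was 3.51 peaks per Mb (95% exact Poisson interval 1.41 to 7.24), which includes the 2.72 of all protein-coding genes. The peaks were spread over the gene, with gaps of 77.0 to 606 kb.

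The strongest Dlg2 peak was the strongest of all 14. It lay deep in the gene at chr7:92320367-92320685, 93.5% of the way along it, with a 10.29-fold enrichment, a −log10 q of 12.31 and 12 fragments at the summit, and ranked 74 to 75 by q-value. No listed Dlg2 start was near it, the closest being 85.6 kb upstream. A second peak, at chr7:92099502-92099751, was enriched 5.35-fold, at a −log10 q of 4.31, with 5 overlapping fragments. That interval also lies in the lncRNA gene 4930567K12Rik, which is on the opposite strand, so it cannot be assigned to Dlg2 alone. The other peaks inside Dlg2, at 10.5%, 36.8%, 51.6% and 97.4% of its length, all had a pileup of 2, fold enrichments of 2.83 or 2.88 and −log10 q of 1.36 or 1.57, the values that 1098 and 1662 peaks of the list share. None of these 4 reached a q-value of 0.01.

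Only at Dlg2 did a peak cover the outermost 5′ end of a member. The interval chr7:90475770-90476214 was enriched 4.46-fold, at a −log10 q of 2.91, with 4 overlapping fragments, and its summit was at 90476062. Dlg2 begins at 90476188, and only 27 bp of the peak lie within it. Tmem126b, which encodes a mitochondrial protein needed for the assembly of respiratory complex I, starts 193 bp away at 90475995 and is transcribed in the opposite direction. The summit fell between the Tmem126b start and the Dlg2 5′ end, 67 bp upstream of the former, and a peak there cannot be assigned to 1 of the 2 genes. The RefSeq window of Tmem126b (chr7:90475946-90476245, minus strand) is shown because 269 of its 300 bases lie under the peak and it spans both positions.

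Tmem126b promoter: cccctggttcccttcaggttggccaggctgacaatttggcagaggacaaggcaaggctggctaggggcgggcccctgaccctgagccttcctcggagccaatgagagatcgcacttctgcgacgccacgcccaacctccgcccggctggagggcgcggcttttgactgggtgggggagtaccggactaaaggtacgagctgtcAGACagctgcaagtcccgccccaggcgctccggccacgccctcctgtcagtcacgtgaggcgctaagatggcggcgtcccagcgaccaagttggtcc

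It held 1 AGAC, as part of the only CAGAC box in the window.

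Set side by side, Dlg1, Dlg2, Dlg3 and Dlg4 had 9 peaks, and only 2 of them, both at Dlg2, were above the Dlg3 peak by −log10 q and by fold enrichment. At a q-value of at most 0.01, 4 of the 9 were left, 3 at Dlg2 and 1 at Dlg3. At 0.001, 3 were left, 2 at Dlg2 and 1 at Dlg3, and 22.3% of all peaks in the list reached that limit. Dlg1 encodes SAP97, which traffics AMPA receptors, and the nearest peak to it was 263 kb away, with a pileup of 2. Thus Dlg3 and Dlg4 each had 1 peak near a listed start inside the gene, Dlg2 had 1 at its 5′ end and 6 in its body, and Dlg1 had none.

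**Figure D3:**
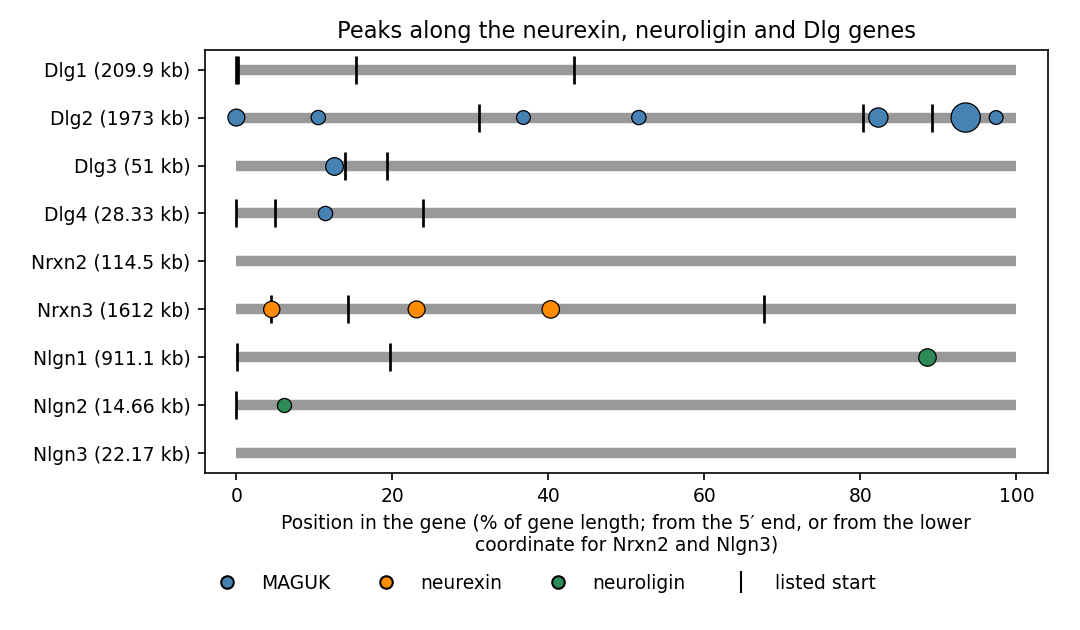
Peaks (circles, larger for higher −log10 q) along the 9 genes, as percent of gene length from the 5′ end (from the lower coordinate for Nrxn2 and Nlgn3, for which no strand was used); bars on the gene are starts listed by RefSeq. Peaks are scattered through Dlg2 and Nrxn3, and those of Dlg3, Dlg4 and Nlgn2 are in the first 12.5% of the gene.

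Nrxn3 encodes a presynaptic neurexin with several promoters. Its 3 peaks all had a q-value of at most 0.01. The first, at chr12:88795114-88795704, was the widest of the 14 at 591 bp, and was enriched 3.77-fold, at a −log10 q of 2.55, with 3 overlapping fragments. It lay 72.4 kb inside the gene and 610 to 1200 bp downstream of a listed start at 88794504. Its summit was 21 bp from its downstream edge, as for the 3.89% of all peaks with a summit within 25 bp of an edge. The second, at chr12:89094472-89094808, was enriched 4.46-fold, at a −log10 q of 2.91, with 4 overlapping fragments. The last, at chr12:89372560-89372930, was enriched 4.54-fold, at a −log10 q of 3.23, with 4 overlapping fragments. They were 141 kb and 419 kb from the nearest listed start. The rate of Nrxn3 was 1.84 peaks per Mb (0.379 to 5.37). The window of the start near the first peak (chr12:88794254-88794553, plus strand) is shown for comparison.

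Nrxn3 promoter: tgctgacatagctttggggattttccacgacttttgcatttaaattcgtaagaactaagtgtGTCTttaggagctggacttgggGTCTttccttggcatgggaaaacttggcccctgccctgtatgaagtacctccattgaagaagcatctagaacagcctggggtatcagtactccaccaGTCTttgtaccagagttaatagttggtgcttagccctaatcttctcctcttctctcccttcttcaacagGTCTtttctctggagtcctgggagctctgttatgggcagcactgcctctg

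It held GTCT 4 times and none of the longer elements, at a GC content of 47.3%. Nrxn2, the other neurexin examined, had no peak, and the nearest was 253 kb away, in Batf2, with a pileup of 2.

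Neuroligins differ in the synapses they serve. Nlgn1 encodes the neuroligin of excitatory synapses, and its single peak, at chr3:25525385-25525915, was enriched 4.54-fold, at a −log10 q of 3.23, with 4 overlapping fragments, the same values as the last Nrxn3 peak and as 112 peaks of the list in all. Nlgn1 is read toward lower coordinates, and the peak was in its far part, 104 kb from the 3′ end and 628 kb downstream of the nearest listed start. Nlgn2 encodes the neuroligin of inhibitory synapses, and its peak, at chr11:69836756-69837028, was close to the 5′ end, 756 to 1028 bp downstream of the only listed start. The Nlgn2 values were low, with an enrichment of 3.44-fold, a −log10 q of 1.50 (q-value 0.0319), 3 fragments at the summit and an expected background of 0.162. Tmem256 and Plscr3 are within 10 kb of it as well. Nlgn3, found at both kinds of synapse, had no peak. Nlgn3 and Dlg3 are neighbours on chromosome X, 481 kb apart with no peak between them, so that the Dlg3 peak, at 525 kb, was the nearest one to Nlgn3. Nlgn2 and Dlg4 are 179 kb apart on chromosome 11, with 1 peak between them. The Nlgn2 window (chr11:69837735-69838034, minus strand) is shown as the only promoter listed for it.

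Nlgn2 promoter: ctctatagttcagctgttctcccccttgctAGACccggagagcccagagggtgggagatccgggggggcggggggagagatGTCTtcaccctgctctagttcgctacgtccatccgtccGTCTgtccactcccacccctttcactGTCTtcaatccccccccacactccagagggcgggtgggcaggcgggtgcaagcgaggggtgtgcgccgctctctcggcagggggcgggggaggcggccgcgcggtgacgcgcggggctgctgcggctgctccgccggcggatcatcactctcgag

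It held GTCT or AGAC 4 times, 1 of them within a CAGAC box, and had a GC content of 68.7%.

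Among the 7 members with listed starts, 4 (Dlg3, Dlg4, Nrxn3 and Nlgn2) had a peak within 2 kb of one, and 3.50% of the 17492 protein-coding genes with listed starts did. The 7 members have 18 listed starts, and the table lists 32851 for 27025 genes in all. Members thus had more starts per gene at which a peak could fall, and the shares are not like for like. Dlg2 is not among the 4 because the table, which is not complete, lists no start at its outermost 5′ end, where it had a peak. Counted by peak, 5 of the 14 summits (35.7%, 95% exact binomial interval 12.8% to 64.9%) were within 2 kb of a listed start of any gene, the fifth being the one at Tmem126b, and 12.7% of the 5164 peaks on the chromosomes of the table were. The members were named with these peaks in view, so both counts are descriptions. None of the 4 peaks overlapped the promoter window of its own gene. The Dlg3 peak was the only one of them on the upstream side, and it had the highest −log10 q of the 4. Nrxn2 and Nlgn3 have no entry in the promoter table.

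**Figure D4:**
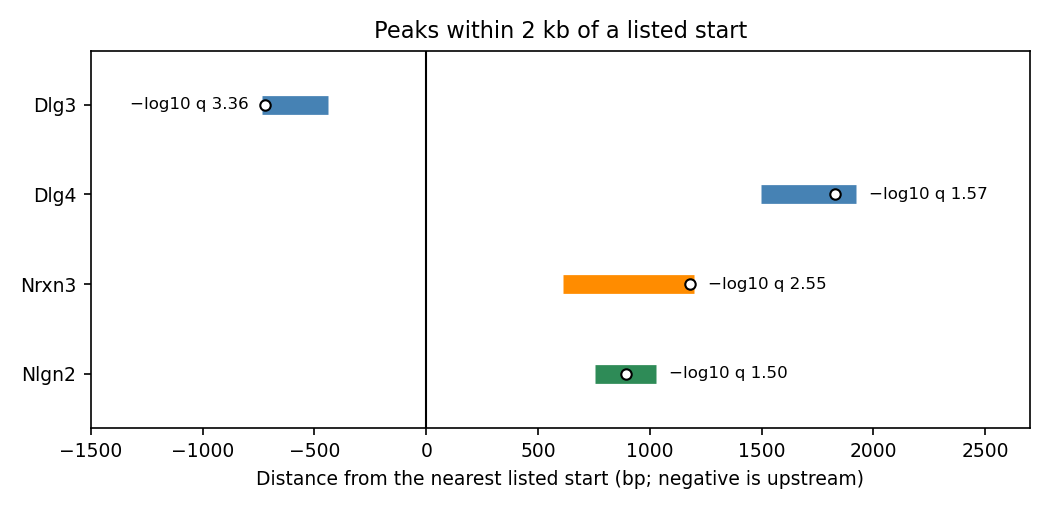
Peaks within 2 kb of a listed start of Dlg3, Dlg4, Nrxn3 and Nlgn2, as distance from that start in bp along the direction of transcription (bars, peak intervals; circles, summits). The Dlg3 peak covers 733 to 440 bp upstream, and the others lie 610 to 1922 bp downstream.

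Genes of other postsynaptic scaffold proteins that bind the Dlg proteins or each other were counted by the same rule. Of 30 such genes, 10 (33.3%) had a peak within 10 kb, against 16.3% of all protein-coding genes, and 5 had one with a q-value of at most 0.01, against 7.90%. By length, 1 of the 12 genes under 100 kb, 4 of the 13 of 100 to 500 kb and 5 of the 5 of at least 500 kb had a peak, beside 12.7%, 41.6% and 72.2% of all protein-coding genes. The counts at a q-value of at most 0.01 were not split by length. The median length was 109 kb in this list and 17.2 kb for all protein-coding genes. The highest −log10 q was 8.38, at Shank2, which links the Dlg and Homer complexes, where the peak had a fold enrichment of 8.18 and a pileup of 9. Iqsec1, an exchange factor for Arf6, had a peak at 6.66, Sipa1l1, a Rap-regulating protein of spines, had one outside the gene at 5.05, and Dlgap1, which binds the guanylate kinase domain of Dlg proteins, had 5 peaks, the highest at 4.67. Shank1 had 3, the highest at 3.48. The Dlg3 peak, at 3.36, was lower than the highest peak of each of these 5 genes.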

How the data were processed

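One list of peaks from mouse hippocampus was analysed, which GEO ties to the IgG control sample. The authors mapped 150 bp paired-end reads, kept those that mapped uniquely, and ran the MACS2 peak caller with a 0.05 cutoff. The submitters' processing notes name BWA, MACS2, HOMER and the build mm10 (GRCm38), without versions. The handling of duplicates and the use of the IgG library in peak calling are not given in the sources used here. The deposited columns hold, per peak, the −log10 q, the −log10 p, the fold enrichment relative to the expected background, and a score (10 times the −log10 q without its decimals). Starts were counted from 1.

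From these, peaks overlapping or within 10 kb of each gene were found with the RefSeq gene table of GRCm38, and strands, starts and sequences came from a RefSeq promoter table of GRCm38.p6 (7 of 9 genes matched), which is not complete. Exons, introns and UTRs were not assigned. The pileup was recovered from the fold enrichment, taken as (pileup + 1) / (background + 1), and the −log10 p of a Poisson background. It returned every deposited −log10 p within 0.00015 and was tested on simulated data. The genes and lists were chosen with earlier results of these data known. All 9 genes are named, and from each list at most the 5 genes with the highest −log10 q. No protein sequences were compared. Alternatives were stricter q-values, a pileup of at least 3, a fold enrichment of at least 5, windows of 0, 3 and 50 kb, and summits. Python 3.11.15, NumPy 2.4.6, pandas 2.3.3, SciPy 1.17.1 and Matplotlib 3.10.9 were used.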

Additional observations from a re-analysis of the deposited data

How the results depend on the processing

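No paired analysis was possible because only 1 list, from 1 library, was analysed. Of all peaks, 53.4% rest on a pileup of 2, and how the counts depend on sequencing depth was not tested. A count was taken as kept within 1.5 times its value, and a rate or share within its 95% interval. Of 30 alternatives, 24 were kept by these limits and 6 were not, all of the latter through filters that remove peaks. With a fold enrichment of at least 5, 2 genes (Dlg2 and Dlg3) and 3 peaks were left, in place of 6 genes and 14 peaks. Limiting the q-value to 0.01 left 8 peaks, and limiting it to 0.001 left 5. Those 5 were 35.7% of the 14 (95% interval 12.8% to 64.9%), which includes the 22.3% of all peaks at that limit. The rate of 2.74 peaks per Mb fell to 1.56 at the limit of 0.01 and to 1.95 without the peaks of pileup 2, both within its wide interval. Removing peaks can only lower the rate, and that interval covers counting error alone. The rate of all protein-coding genes under the same filters is not given here. The 6 genes fell to 4 at either q-value limit. At the limit of 0.01, the scaffold partner list fell from 10 to 5 genes and the list of other adhesion genes from 19 to 9. The single Dlg3 peak was found under the stricter q-values, a pileup of at least 3 and a fold enrichment of at least 5, whereas those of Dlg4 and Nlgn2 were lost at the limit of 0.01. A window of 50 kb gave 16 peaks at the same 6 genes.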

Other observations

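Other adhesion genes of the synapse, among them the leucine-rich repeat Lrrtm and Slitrk proteins, the teneurins, the Cadm proteins and the receptor phosphatases, were counted by the same rule. Of 50 genes, 19 (38.0%) had a peak within 10 kb, against 16.3% of all protein-coding genes, and in 9 the q-value reached 0.01 or less, against 7.90% of all. By length, 6 of the 31 genes under 100 kb, 3 of the 6 of 100 to 500 kb and 10 of the 13 of at least 500 kb had a peak, beside 12.7%, 41.6% and 72.2% of all protein-coding genes. The counts at a q-value of at most 0.01 were not split by length. The median length was 59.9 kb in this list and 17.2 kb for all protein-coding genes. Mdga2, which binds neuroligins and blocks their contact with neurexins, had the highest −log10 q, 10.04, with a fold enrichment of 9.20, and its relative Mdga1 reached 3.99. Lrrtm4, a postsynaptic ligand of neurexins and heparan sulfate proteoglycans, reached 7.99. Dag1, which encodes dystroglycan, a neurexin ligand at inhibitory synapses, reached 7.78, and Ptprd, a presynaptic receptor phosphatase, reached 4.31.

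Of 21 genes for receptors, channels and other proteins bound by the Dlg scaffolds, 7 (33.3%) had a peak, against 16.3% of all protein-coding genes, and in 6 the q-value reached 0.01 or less, against 7.90%. By length, 3 of 12 genes under 100 kb, 4 of 8 of 100 to 500 kb and 0 of 1 longer gene had a peak, beside 12.7%, 41.6% and 72.2% of all protein-coding genes. The counts at a q-value of at most 0.01 were not split by length. The median length was 92.0 kb in this list and 17.2 kb for all protein-coding genes. The highest −log10 q was at Grin2a, an NMDA receptor subunit, with 6.86 and a fold enrichment of 7.01. Cacng8, an auxiliary subunit of AMPA receptors, reached 3.48 with a peak outside the gene. Gria2, an AMPA receptor subunit, reached 3.23, Adgrb1, an adhesion receptor of spines, reached 2.88, and Gria1, another AMPA receptor subunit, reached 2.55, with 1 further gene of the list at the same values.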
